A study of Mus musculus with 3 samples.

Results

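Chromatin accessibility was read at 10 genes that the transcription factor p53 is known to activate: Cdkn1a, Ccng1, Bax, Bbc3, Pmaip1, Phlda3, Eda2r, Sesn1, Sesn2 and Zmat3. They are 10 of 21883 protein-coding mouse genes with coordinates on the build of the files, and each was given the peaks of a library that overlapped the gene body or the 5 kb on either side of it. Peaks within 1000 bp of either end of the gene are called end peaks, and the rest of the locus is called other peaks. The data are single-cell ATAC-seq, in which the enzyme Tn5 cuts open DNA and the cuts are counted per nucleus. Tumours were raised in mice by in utero electroporation of piggyBac transposon constructs, and every library carries the tissue label glioma. There were 3 libraries, 1 per group: a Control and 2 that overexpressed PDGFB-WT or PDGFB-NLS. PDGFB is a ligand of platelet-derived growth factor receptors. The construct of the Control tissue, the meaning of NLS, the p53 status and other engineered alleles of the tumours, the age of the mice and any pooling of animals were not given in the sources used here.

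p53 is a tumour suppressor that is stabilised after DNA damage and other stress and binds paired copies of a short motif, the half-site, near its target genes. Its targets halt the cell cycle, start apoptosis at the mitochondrion or protect the cell from oxidative and metabolic stress. Open chromatin at a target is not a measure of its transcription.

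The sequences before 7 starts whose regions are described below are shown, from RefSeq on GRCm38.p6, with the motif matches that differ between them. Each is the 250 bases before the start, read 5′ to 3′ on the gene's strand. Capitals mark matches to the p53 half-site consensus in the Cdkn1a start 1, Bax, Sesn1 and Ccng1 lines, and GC boxes (GGGCGG on either strand) in the others.
Cdkn1a, start 1 (chr17:29090729-29090978, plus strand): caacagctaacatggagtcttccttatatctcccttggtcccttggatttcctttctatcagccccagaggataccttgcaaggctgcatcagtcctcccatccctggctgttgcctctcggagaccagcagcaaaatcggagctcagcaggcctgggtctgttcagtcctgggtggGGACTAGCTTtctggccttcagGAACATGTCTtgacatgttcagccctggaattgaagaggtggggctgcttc
Cdkn1a, start 2 (chr17:29093519-29093768, plus strand): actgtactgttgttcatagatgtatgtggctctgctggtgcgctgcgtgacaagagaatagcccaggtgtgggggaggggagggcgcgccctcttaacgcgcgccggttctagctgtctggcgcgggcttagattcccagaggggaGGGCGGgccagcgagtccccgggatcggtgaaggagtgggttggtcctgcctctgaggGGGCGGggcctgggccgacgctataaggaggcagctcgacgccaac
Bax (chr7:45466899-45467148, minus strand): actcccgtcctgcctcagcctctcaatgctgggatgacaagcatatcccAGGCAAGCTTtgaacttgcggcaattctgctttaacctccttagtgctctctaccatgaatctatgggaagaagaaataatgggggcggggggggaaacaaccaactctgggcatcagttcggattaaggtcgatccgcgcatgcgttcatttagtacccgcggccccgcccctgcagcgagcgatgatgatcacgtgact
Sesn1, start 2 (chr10:41887189-41887438, plus strand): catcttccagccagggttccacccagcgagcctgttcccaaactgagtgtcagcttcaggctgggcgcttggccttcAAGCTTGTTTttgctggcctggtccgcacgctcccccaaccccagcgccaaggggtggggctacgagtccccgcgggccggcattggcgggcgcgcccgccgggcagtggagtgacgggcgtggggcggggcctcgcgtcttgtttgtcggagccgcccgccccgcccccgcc
Ccng1 (chr11:40755287-40755536, minus strand): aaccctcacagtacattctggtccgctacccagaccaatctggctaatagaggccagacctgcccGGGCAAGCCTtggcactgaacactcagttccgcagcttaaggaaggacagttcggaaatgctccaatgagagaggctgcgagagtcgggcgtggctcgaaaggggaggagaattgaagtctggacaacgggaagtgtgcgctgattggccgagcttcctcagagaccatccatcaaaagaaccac
Bbc3, start 1 (chr7:16309333-16309582, plus strand): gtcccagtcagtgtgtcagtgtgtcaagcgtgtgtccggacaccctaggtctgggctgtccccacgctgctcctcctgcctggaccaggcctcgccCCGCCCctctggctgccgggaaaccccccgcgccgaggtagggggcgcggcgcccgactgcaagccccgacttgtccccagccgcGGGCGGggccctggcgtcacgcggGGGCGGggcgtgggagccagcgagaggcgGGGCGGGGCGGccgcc
Eda2r (chrX:97377210-97377459, minus strand): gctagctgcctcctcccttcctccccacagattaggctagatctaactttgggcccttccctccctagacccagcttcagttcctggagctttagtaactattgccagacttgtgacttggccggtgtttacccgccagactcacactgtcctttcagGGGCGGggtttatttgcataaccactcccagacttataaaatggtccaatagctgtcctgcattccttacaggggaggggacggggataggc
RefSeq starts were found for 8 of the 10 genes, 12 starts in all, and none for Pmaip1 and Zmat3. The half-site consensus was found before 4 of 12 starts, on either strand, against 7.13% of 32807 promoters of the same length. Cdkn1a start 1 held 2 matches, 73 and 51 bases before the start, while Bax had its match at 201 bases, Sesn1 start 2 at 173 and Ccng1 at 185. GC boxes stood before 10 of 12 starts, against 32.7% of all promoters, and CCAAT before 6 of 12, against 33.8%. TATAAA was found at 1 start, Eda2r, against 12.4% of promoters. CACGTG was found at 2 starts against 6.02%, and TGANTCA at 0 against 6.75%. All motifs were searched on both strands. Some GC boxes overlapped each other, and matches to different motifs did not overlap. A match is a description of letters and no measurement of binding.

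The peaks of the 10 loci numbered 43 in Control, 30 in PDGFB-WT and 46 for PDGFB-NLS. Merged across libraries they made 52 regions of 147229 in the series, 17 of them end regions and 35 other regions. Of these 52, 29 were called in all 3 libraries, 9 in 2 and 14 in 1. Of all regions of the series, 32.2% were called in all 3, 32.5% in 2 and 35.3% in 1. The counts by single library that follow have no series share by library beside them. No region was called in PDGFB-WT alone, and the single-library regions were weak: the 6 of Control alone had 1.51 to 3.72 counts per 1e+06 (CPM), and the 8 of PDGFB-NLS alone 1.14 to 5.09. Depth was 31588784 counts over 2226 nuclei for Control, 7008951 over 7441 for PDGFB-WT and 31177621 over 10996 for PDGFB-NLS. The median nucleus carried 13054, 821 and 2767.5 counts in that order, so PDGFB-WT is the library with the widest intervals and the fewest peaks. A region missing from a library's list adds nothing to that library's locus, and its count there is unknown.

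CPM was scaled on the counts in regions called in all 3 libraries. With 1 library a group there is no replicate and no test: a ratio carries an exact 95% interval on fragments, which covers counting error only, and is called when it passes 1.5-fold. Ratios of genes are log2 values less the median over all genes compared the same way. That median, for loci, was -0.21 for PDGFB-WT against Control. It was 0.02 when PDGFB-NLS was set against Control, and 0.23 when it was set against PDGFB-WT. A gene entered a comparison when both of its libraries held 100 counts or more.

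All 10 loci held a called peak in all 3 libraries. Per kb of peak, Ccng1 was the most accessible locus in each, at 84.3 CPM per kb in Control beside 75.2 in PDGFB-WT and 79.9 in PDGFB-NLS. Eda2r was the least, at 3.83, 11.6 and 6.52 CPM per kb. Sesn2 came next to Ccng1 everywhere, at 61.7, 58.4 and 43.6 CPM per kb. In Control the intervals of neighbours in the order overlapped only for Sesn1 (16.5) and Pmaip1 (15.3). In PDGFB-WT the pairs Bax and Sesn1, Sesn1 and Bbc3, Cdkn1a and Phlda3, Phlda3 and Zmat3, Zmat3 and Pmaip1, and Pmaip1 and Eda2r overlapped. In PDGFB-NLS, Sesn2 overlapped Bax, Sesn1 overlapped Phlda3, and Phlda3 overlapped Pmaip1. The peaks called along the long body of Sesn1 differed in number beside its place in the order: 15 peaks in Control and in PDGFB-NLS, and 5 in PDGFB-WT.

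**Figure D1:**
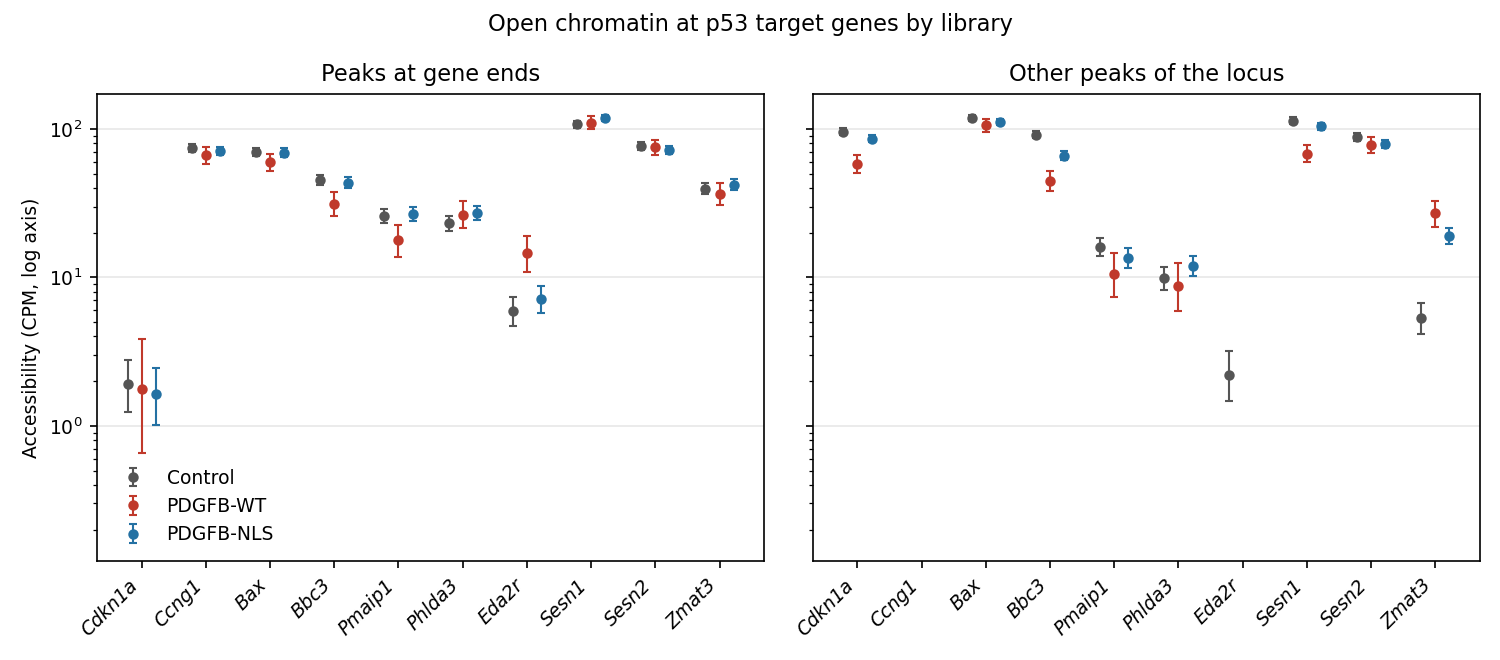
Accessibility in CPM (log axis) of end peaks (left) and other peaks (right) at each locus, 1 point per library with its exact 95% Poisson interval; genes with no such peak in a library have no point. End peaks of Zmat3 lie close together, at 39.6, 36.6 and 42.1 CPM in Control, PDGFB-WT and PDGFB-NLS, while its other peaks run from 5.35 CPM in Control to 27.0 in PDGFB-WT.

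Of 9 loci compared between PDGFB-WT and Control, 5 were above and 4 below the all-gene median, with a median ratio of 0.03. Zmat3 was past 1.5-fold higher and Bbc3 past 1.5-fold lower, 2 of 9, where 14.6% of 13885 genes were past 1.5-fold. With the all-gene median left in, 0 were higher and 2 lower, Bbc3 and Cdkn1a, against 5.05% and 14.4% of genes in those directions, where the centred shares were 8% and 6.64%. Eda2r held 98 counts in PDGFB-WT, under the minimum. Between PDGFB-NLS and Control 10 loci were compared, with a median of -0.08 and 0 past 1.5-fold, against 9.21% of genes. Between PDGFB-NLS and PDGFB-WT 9 were compared, with a median of -0.08 and 0 past 1.5-fold, against 9.62% of genes. These 3 comparisons share libraries and are not independent of each other.

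End peaks of the genes compared stayed within 1.5-fold. For PDGFB-WT against Control the median ratio of the end peaks compared was 0.03 over 8 genes. For PDGFB-NLS it was 0.06 over 9 genes against Control and 0.01 over 8 against PDGFB-WT. The count past 1.5-fold was 0 in each comparison, where 8.88%, 7.71% and 5.55% of all genes passed. Per kb of peak, which divides by the length called in each library, Zmat3 ends were at 0.64 in PDGFB-WT and Bbc3 ends at -1.11 in PDGFB-NLS against Control. With the all-gene median left in, Pmaip1 ends passed 1.5-fold between PDGFB-NLS and PDGFB-WT, at 0.60, where 5.42% of genes were higher.

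For other peaks of PDGFB-WT against Control the median ratio was -0.24 over 6 genes, with 2 past 1.5-fold, Zmat3 higher and Bbc3 lower, against 27.4% of genes. For the other peaks of PDGFB-NLS against Control it was -0.19 over 8 genes, with Zmat3 alone past 1.5-fold, against 16.6%. For PDGFB-NLS against PDGFB-WT it was 0.06 over 6 genes, with Zmat3 alone past 1.5-fold and lower, against 19.1%. With the all-gene median left in, the other peaks of PDGFB-WT against Control had 1 higher, Zmat3, and 3 lower, Bbc3, Cdkn1a and Sesn1, against 10.4% and 21.4% of genes. Between PDGFB-NLS and PDGFB-WT, Sesn1 was then past 1.5-fold higher, at 0.62, and 0 were lower, against 23.2% and 3.37%.

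**Figure D2:**
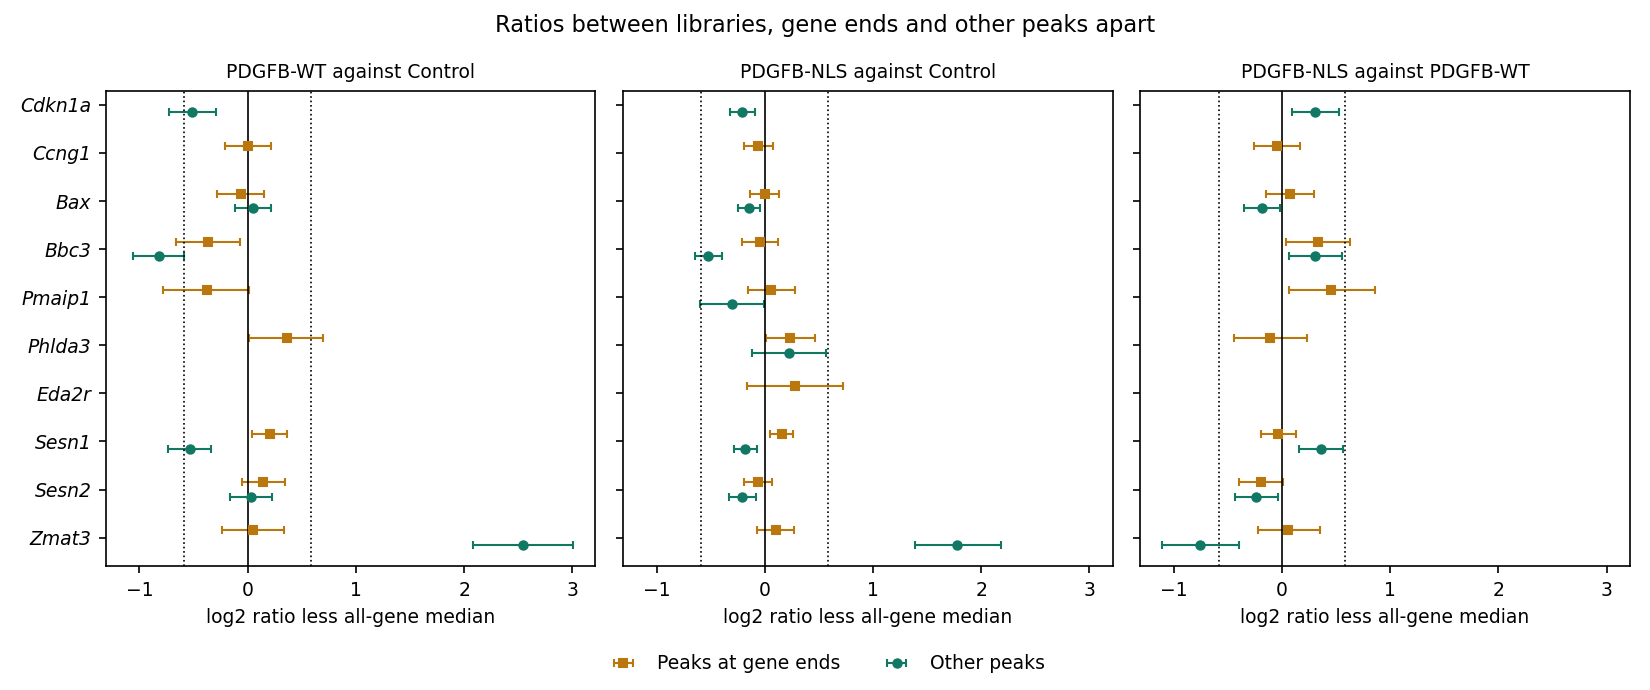
Log2 ratio of each gene's end peaks (squares) and other peaks (circles) less the all-gene median, in the 3 comparisons, with exact 95% intervals on fragments (counting error only); dotted lines mark 1.5-fold and genes under 100 counts have no point. The end peaks lie between the dotted lines in all panels, and the Zmat3 other peaks at 2.54 and 1.78 stand to the right of them against Control.

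Taken region by region, 29 regions were compared, less the median over all regions called in all 3 libraries. That region median was 0.13 for PDGFB-WT against Control, whereas the gene median for ends was -0.17. For PDGFB-NLS the region median was 0.03 with Control and -0.09 with PDGFB-WT as the reference. The same peak therefore has a lower ratio as a region than as a gene end in PDGFB-WT against Control, and calls near 1.5-fold depend on the median used.

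For PDGFB-WT against Control, 4 regions were past 1.5-fold higher and 9 lower. Of 45264 regions, 26.6% were higher and 13.1% lower, 39.7% in all. With no median taken off, a setting added after the values were seen, 5 were higher and 6 lower, against 30.7% and 8.6%. For PDGFB-NLS against Control, 4 were higher and 1 lower, against 14.1% and 5.39% of 47209, 19.5% in all. For PDGFB-NLS against PDGFB-WT, 5 were higher and 2 lower, against 8.66% and 18.4% of 45310, 27.1% in all. The median of the 29 was -0.29, -0.12 and 0.23 in the 3 comparisons.

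Cdkn1a (chr17:29090979-29100722), which encodes the cyclin-dependent kinase inhibitor p21 that halts the cell cycle, had 97.7 CPM in Control, with 60.0 in PDGFB-WT and 87.9 in PDGFB-NLS. PDGFB-WT was the lowest and its interval of 52.2 to 68.7 overlapped neither of the others. The log2 ratio to Control was -0.49 (95% interval -0.71 to -0.28) in PDGFB-WT, short of 1.5-fold, and -0.17 (-0.28 to -0.05) in PDGFB-NLS. The PDGFB-WT ratio was past 1.5-fold lower at -0.70 with the all-gene median left in, -0.63 over regions called in all 3 libraries, -0.67 in nuclei with at least 1000 counts and -1.12 per kb of peak. Nearly all of this signal lay inside the gene. The region over the second RefSeq start had 35.3, 19.0 and 32.0 CPM in Control, PDGFB-WT and PDGFB-NLS, and the region about 1782 bp downstream of that start had 60.6, 39.3 and 54.2 CPM. Region by region, PDGFB-WT against Control gave -1.03 (-1.42 to -0.66) and -0.76 (-1.03 to -0.49), both past 1.5-fold lower. The first start, whose promoter above holds both half-site matches, had a peak in Control only, with 49 counts or 1.90 CPM (1.24 to 2.78). The second start, whose promoter above holds GC boxes and no half-site match, had a peak in all 3 libraries.

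Ccng1 (chr11:40748552-40755309) encodes cyclin G1, a regulator in the p53 and MDM2 circuit. Its locus was a single peak over its start, at 74.7 CPM in Control, 66.7 in PDGFB-WT and 71.2 for PDGFB-NLS, and the intervals of all 3 overlapped. The locus ratios were 0.05 (-0.16 to 0.26) for PDGFB-WT against Control and -0.09 (-0.22 to 0.05) for PDGFB-NLS against Control. Its promoter above, with a half-site and 3 CCAAT boxes, had an end ratio of 0.00 in PDGFB-WT against Control. As a region the same peak was at -0.29 (-0.51 to -0.09), and with no median taken off at -0.16.

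Bax (chr7:45461695-45466903), the pore-forming killer of the BCL-2 family, had 188.8 CPM in Control beside 166.1 in PDGFB-WT and 181.1 in PDGFB-NLS. The ratios were 0.03 (-0.10 to 0.16) and -0.07 (-0.16 to 0.01) against Control, and both intervals include 0. Its own start had 56.6, 48.3 and 56.9 CPM. The strongest region of the window, 86.5, 82.4 and 81.3 CPM, lies past the far end of Bax and also within 1000 bp of an end of Ftl1, so 3 of the 5 regions counted for Bax are shared with neighbours.

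Bbc3 (chr7:16308398-16318334) encodes PUMA, a BH3-only protein that unleashes BAX and BAK. It had 136.9 CPM in Control, with 76.3 in PDGFB-WT and 109.9 in PDGFB-NLS. Control was the highest, PDGFB-WT the lowest, and the 3 intervals did not overlap. PDGFB-WT was 1.55-fold lower than Control relative to all genes, a log2 ratio of -0.63 (-0.82 to -0.45), and PDGFB-NLS was at -0.33 (-0.43 to -0.23). With each count in a nucleus capped at 1 the PDGFB-WT ratio was -0.55, short of 1.5-fold, and per kb of peak it was -1.22. The region at the first start, shown above with its run of GC boxes, had 45.3, 31.4 and 41.4 CPM. The next region, which covers the other starts, had 37.3, 16.9 and 25.4 CPM, and the region in the gene body 54.3, 28.0 and 40.9 CPM. All 3 were highest in Control and lowest in PDGFB-WT. Their region ratios for PDGFB-WT against Control were -0.66, -1.27 and -1.09, past 1.5-fold lower. The first of these was short of it at -0.53 with no median taken off and at -0.36 as an end peak, while the others were at -1.14 and -0.96 uncentred. The region over the later starts was also past 1.5-fold lower in PDGFB-NLS than in Control, at -0.59 (-0.79 to -0.39), the one member region lower in that comparison, but at -0.56 with no median taken off, short of 1.5-fold. The 32 genes compared within 1 Mb of Bbc3 had a median of 0.05 in PDGFB-WT against Control.

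**Figure D3:**
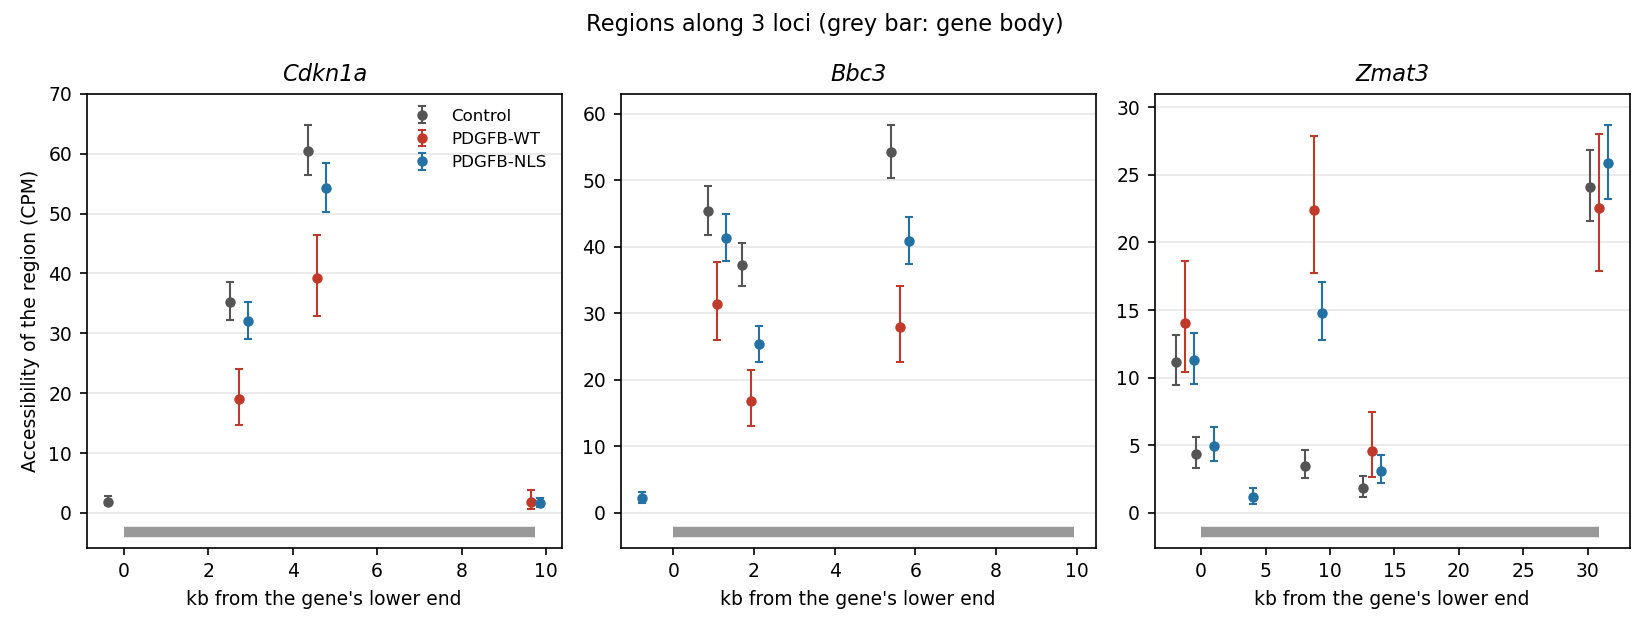
Accessibility in CPM of each region along Cdkn1a, Bbc3 and Zmat3 against its distance in kb from the gene's lower end, 1 point per library with the exact 95% Poisson interval; points of 1 region are set slightly apart and the grey bar is the gene body. PDGFB-WT is lowest at the strong regions of Cdkn1a and Bbc3, and the Zmat3 body region with 3.49, 22.4 and 14.8 CPM is the one where Control lies farthest below the others.

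Pmaip1 (chr18:66458604-66465558) encodes NOXA, another BH3-only protein. It had 42.0 CPM in Control, 28.3 in PDGFB-WT and 40.4 for PDGFB-NLS. PDGFB-WT was the lowest, at -0.35 (-0.67 to -0.05) against Control, and PDGFB-NLS was at -0.07 (-0.25 to 0.10). The end region had 26.0, 17.8 and 26.9 CPM, with a ratio for PDGFB-WT against Control of -0.38 (-0.79 to 0.01) as an end peak, an interval that includes 0. Less the region median the same peak was at -0.68 (-1.084 to -0.29), and with no median taken off at -0.55, short of 1.5-fold. The region past the gene's upper end had 14.4, 10.5 and 12.2 CPM, at -0.59 (-1.14 to -0.07) less the region median in PDGFB-WT against Control and -0.46 with none taken off, so that call too rests on the median.

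Phlda3 (chr1:135766085-135769134) encodes a pleckstrin-homology protein that restrains AKT. Its locus had 33.1 CPM in Control beside 35.3 in PDGFB-WT and 39.1 in PDGFB-NLS, and all 3 intervals overlapped. The ratios were 0.31 (0.01 to 0.60) and 0.23 (0.04 to 0.41) against Control, and 0.09 and 0.24 with the all-gene median left in. The start region had 23.2, 26.5 and 27.1 CPM. A second region, 5132 bp past the start, had 9.89, 8.74 and 6.92 CPM. Less the region median, the start region was at 0.06 and 0.19 against Control in PDGFB-WT and PDGFB-NLS. The second region was at -0.31 and -0.55. A further region, before the gene, was called in PDGFB-NLS alone, at 5.09 CPM on 125 counts. It adds to the locus of that library only.

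Eda2r (chrX:97333837-97377234), a receptor of the tumour necrosis factor family that binds ectodysplasin A2, was the weakest locus. It had 8.15 CPM (6.70 to 9.81) in Control, with 14.5 (10.8 to 19.0) in PDGFB-WT and 7.12 (5.77 to 8.70) in PDGFB-NLS, so PDGFB-WT was the highest and did not overlap the others. The region over its start, whose promoter above holds TATAAA, had 3.53, 5.33 and 3.05 CPM, a region ratio in PDGFB-WT against Control of 0.46, or 0.60 with no median taken off. The wider difference lay in the neighbouring region, centred 680 bp into the gene, at 2.40, 9.19 and 4.07 CPM. That region was past 1.5-fold higher against Control in both, at 1.80 (1.07 to 2.53) in PDGFB-WT and 0.73 (0.09 to 1.38) in PDGFB-NLS. It rests on 62 counts in both Control and PDGFB-WT, and 100 in PDGFB-NLS. The X chromosome took 1.53%, 1.62% and 1.48% of common counts in the 3 libraries.

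Sesn1 (chr10:41810574-41908436) and Sesn2 (chr4:132492804-132510456) encode sestrins, which restrain mTORC1 and curb oxidative stress. Sesn1 had 221 CPM in Control, 178.3 in PDGFB-WT and 223.2 for PDGFB-NLS, and its ratios were -0.10 (-0.22 to 0.03) and -0.00 (-0.08 to 0.07) against Control. The PDGFB-WT value depends on the setting: it was 0.76 per kb of peak, past 1.5-fold higher, -1.48 with no flank, past 1.5-fold lower, and -0.54 without peaks near ends of other genes. Its ends and its other peaks lay on opposite sides of 0 in PDGFB-WT. The end peaks had 107.3, 110.1 and 118.6 CPM, a ratio of 0.20 (0.04 to 0.37) in PDGFB-WT against Control. The other peaks had 114.0, 68.2 and 104.6 CPM, a ratio of -0.53 (-0.74 to -0.33), with 13 such peaks in Control and 3 in PDGFB-WT. Per kb of peak the direction of the other peaks turned, to 0.75, and over regions called in all 3 libraries they were at -0.30. At the second start, whose half-site is shown above, the region had 68.1, 50.8 and 63.7 CPM, a region ratio of -0.55 (-0.79 to -0.32). The far-end region, which is also near an end of Armc2, had 3.72, 9.63 and 7.61 CPM and was past 1.5-fold higher in both against Control, at 1.24 (0.57 to 1.90) and 0.997 (0.49 to 1.52). The first-start region, also near an end of Cep57l1, had 103.6, 100.5 and 111.0 CPM. It overlaps the gene body only at its edge. With no flank, its peak counts only in a library whose peak reaches the body.

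Sesn2 had 164.7 CPM in Control beside 153.5 in PDGFB-WT and 152.0 in PDGFB-NLS. Its ratios were 0.11 (-0.03 to 0.25) and -0.13 (-0.22 to -0.04) against Control, and -0.25 (-0.39 to -0.11) between PDGFB-NLS and PDGFB-WT. The start region was level at 76.3, 75.1 and 72.4 CPM, and the region upstream of it at 68.7, 66.4 and 62.1. One region near the far end of the gene, 15708 bp from the start, had 19.7, 12.004 and 15.3 CPM and was past 1.5-fold lower in PDGFB-WT than in Control, at -0.85 (-1.36 to -0.37).

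Zmat3 (chr3:32334792-32365665), a zinc-finger protein that binds RNA and acts in p53 tumour suppression, was the member past 1.5-fold higher in PDGFB-WT than in Control. Its locus had 44.996 CPM in Control, with 63.6 in PDGFB-WT and 61.2 in PDGFB-NLS, and Control lay below both. The locus ratio was 0.71 (0.48 to 0.94) in PDGFB-WT, a fold of 1.64, and 0.43 (0.27 to 0.58) in PDGFB-NLS. The PDGFB-WT ratio was 0.55 with each count in a nucleus capped at 1, 0.44 per kb of peak and 0.50 with the all-gene median left in, all short of 1.5-fold. The end peaks were level at 39.6, 36.6 and 42.1 CPM, with ratios of 0.05 (-0.24 to 0.33) and 0.10 (-0.07 to 0.27).

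The Zmat3 other peaks had 5.35 CPM (4.17 to 6.76) in Control, 27.0 (21.8 to 33.0) in PDGFB-WT and 19.1 (16.8 to 21.6) for PDGFB-NLS. Against Control they were 5.82-fold higher in PDGFB-WT, a ratio of 2.54 (2.08 to 3.01), and 3.43-fold higher in PDGFB-NLS, 1.78 (1.39 to 2.18). PDGFB-NLS was 1.69-fold lower than PDGFB-WT, at -0.76 (-1.10 to -0.40). The last of these was short of 1.5-fold at -0.50 with the all-gene median left in, -0.56 over regions called in all 3 libraries and -0.42 per kb of peak. With ends taken within 500 bp, the other peaks gave 1.53 and 0.83 against Control. Most of the difference lay in the region chr3:32343057-32343971 in the gene body, which was singled out after its values were seen. Control held 90 counts there, PDGFB-WT 151 and PDGFB-NLS 364, which gave 3.49, 22.4 and 14.8 CPM. The region ratio was 2.55 (2.003 to 3.11) in PDGFB-WT, where 0.495% of regions were higher, and 2.05 (1.58 to 2.55) in PDGFB-NLS, where 0.428% were higher. A weaker region further along the body, with 48, 31 and 77 counts, had ratios of 1.17 (0.17 to 2.13) and 0.72 (-0.04 to 1.4997) against Control. The 9 genes compared within 1 Mb had medians of 0.09 and -0.14. Exon positions were not used here.

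The libraries differ in which nuclei they hold, and in whole-library values fewer nuclei of a type and less accessibility per nucleus cannot be told apart. Nuclei were clustered within each library and clusters were named only from marker genes. The share of microglia or macrophage-like nuclei was 22.9% in Control, 30.6% in PDGFB-WT and 26.1% among PDGFB-NLS nuclei. CPM weighs nuclei by their counts, and depth per nucleus differed, so a share of nuclei is not a share of CPM. By counts, this class held 11544901 of 31588784 in Control, 2135577 of 7008951 in PDGFB-WT and 9973754 of 31177621 in PDGFB-NLS. OPC-like clusters, for oligodendrocyte precursor cells, made up 2.56% (57 nuclei), 26.2% (1950) and 13.9% (1524). Endothelial-like clusters made up 17.5% and 5.44% of Control and 10.6% of PDGFB-NLS, oligodendrocyte-like clusters 16.2% of Control and 19.3% of PDGFB-NLS, and no PDGFB-WT cluster took either name at this resolution. By counts, the oligodendrocyte-like clusters held 8064770 in Control and 6540613 in PDGFB-NLS. At the finer clustering 1 cluster of PDGFB-WT was endothelial-like (8.14%) and 1 oligodendrocyte-like (5.51%). Clusters 3, 4 and 5 of PDGFB-WT stayed unnamed, and they hold 17.5%, 17.1% and 8.53% of it. In clusters 3 and 5 the astrocyte list had the highest median log2 fold, 1.40 and 0.89, with 16 of 16 detected markers above 0 in each. The naming rule was not met, so values for astrocyte-like nuclei leave PDGFB-WT out. The shares are given as descriptions, with no comparison between libraries. Doublets were not removed.

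The marker lists differed between libraries beside the members. All 18 OPC markers had peaks in all 3 libraries, with a summed level of 1131 CPM in Control beside 1513 in PDGFB-WT and 1508 in PDGFB-NLS. Of 16 endothelial markers, 16 had peaks in Control, with 11 in PDGFB-WT and 16 in PDGFB-NLS, with sums of 652.4, 262.7 and 513.2 CPM. Cldn5, Esam, Ly6c1, Slco1a4 and Sox17 had no peak in PDGFB-WT. The 18 microglia or macrophage markers summed to 1312, 854.2 and 1166 CPM, with 17 of them having peaks in PDGFB-WT, where Trem2 had none, and 0 of 18 higher there than in Control. The 18 oligodendrocyte markers summed to 1492, 755.8 and 1332 CPM. The part of these differences in the whole-library ratios was not tested.

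By cell type the values are descriptions, since the clusters were made from the same nuclei and peaks. The body region of Zmat3 had its highest level in the OPC-like cluster of each library. The level there was 28.2 CPM (12.9 to 53.6) in Control, 40.8 (29.4 to 55.1) in PDGFB-WT and 58.6 (48.4 to 70.4) for PDGFB-NLS. Among microglia or macrophage-like nuclei there was no count in Control, where the interval reaches 0.793 CPM, beside 1.91 CPM for PDGFB-WT and 1.76 for PDGFB-NLS. The OPC-like interval of PDGFB-WT overlapped those of its unnamed clusters 3 (24.5 CPM) and 4 (32.6 CPM), and that of Control overlapped its unnamed cluster 5 (15.8 CPM). At the coarser and finer clusterings the highest cluster was OPC-like too.

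Within OPC-like nuclei this region gave 0.52 (0.00 to 1.07) for PDGFB-NLS against PDGFB-WT, where the whole libraries, also uncentred, gave -0.59, a 1.51-fold lower level. Control, with 18 counts there, was under the minimum of 30. The OPC-like clusters are not alike. That of PDGFB-WT had 9 of 9 detected oligodendrocyte markers above the rest of its library, with a median log2 fold of 1.12. PDGFB-NLS had a separate oligodendrocyte-like cluster, and its OPC-like cluster had 7 of 18 above, with a median of -0.05. What this does to ratios within OPC-like nuclei was not tested. Astrocyte-like nuclei had 7.18 CPM in Control and 15.9 in PDGFB-NLS, a ratio of 1.15 (0.30 to 2.05) within that class. Over the Zmat3 regions called in all 3 libraries, OPC-like nuclei had 53.3 CPM in Control beside 89.3 in PDGFB-WT and 110.3 in PDGFB-NLS. The ratios to Control were 0.74 (-0.01 to 1.58) and 1.05 (0.34 to 1.85).

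The Eda2r region 680 bp into the gene was also highest in the OPC-like cluster of each library, at 7.84 (1.62 to 22.9), 13.6 (7.61 to 22.4) and 16.7 (11.6 to 23.3) CPM on 5, 28 and 64 counts. The Control interval overlapped those of astrocyte-like and oligodendrocyte-like nuclei. Over the whole Eda2r locus, Control was highest in oligodendrocyte-like nuclei, at 21.7 CPM on 141 counts beside 10.98 in OPC-like nuclei. Microglia or macrophage-like nuclei had 0.54, 3.81 and 0.50 CPM there. Unnamed cluster 3 of PDGFB-WT had 11.6 CPM. The Phlda3 region past the gene was led by oligodendrocyte-like nuclei in Control, at 30.2 CPM, and in PDGFB-NLS, at 19.2, a within-class ratio of -0.65 (-1.17 to -0.15). In astrocyte-like nuclei it had 0.844 and 1.91 CPM. PDGFB-WT had no oligodendrocyte-like cluster at this resolution, and its unnamed cluster 4 had 18.9 CPM and its OPC-like nuclei 17.0. The oligodendrocyte-like cluster of its finer clustering was the highest there.

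The region past the upper end of Pmaip1 had 37.7, 30.02 and 34.9 CPM in microglia or macrophage-like nuclei, and 35.1 CPM on 10 counts in lymphocyte-like nuclei of Control. OPC-like nuclei had 3.14, 0 and 0.261 CPM there. The Sesn2 region near its far end was high in the same cells, at 51.6, 31.9 and 43.9 CPM in microglia or macrophage-like nuclei beside 1.57, 0.971 and 2.35 in OPC-like nuclei. So was the region of the Bax window next to Ftl1 and Gys1, at 52.3, 45.7 and 45.9 CPM.

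Over its common regions Cdkn1a was highest, among named classes, in endothelial-like nuclei, at 160.6 CPM in Control and 141.3 in PDGFB-NLS. Astrocyte-like nuclei were lower, at 41.6 and 54.7 CPM. Bbc3 had 173.2 and 168.7 CPM in endothelial-like nuclei and 66.7 and 58.9 in astrocyte-like nuclei. Its level in microglia or macrophage-like nuclei of Control, 167.5 CPM, overlapped the endothelial-like one. Sesn1 had 245.1 and 242.5 CPM in astrocyte-like nuclei of Control and PDGFB-NLS and 215.8 and 226.2 in endothelial-like nuclei, and the intervals of these classes overlapped in both libraries.

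**Figure D4:**
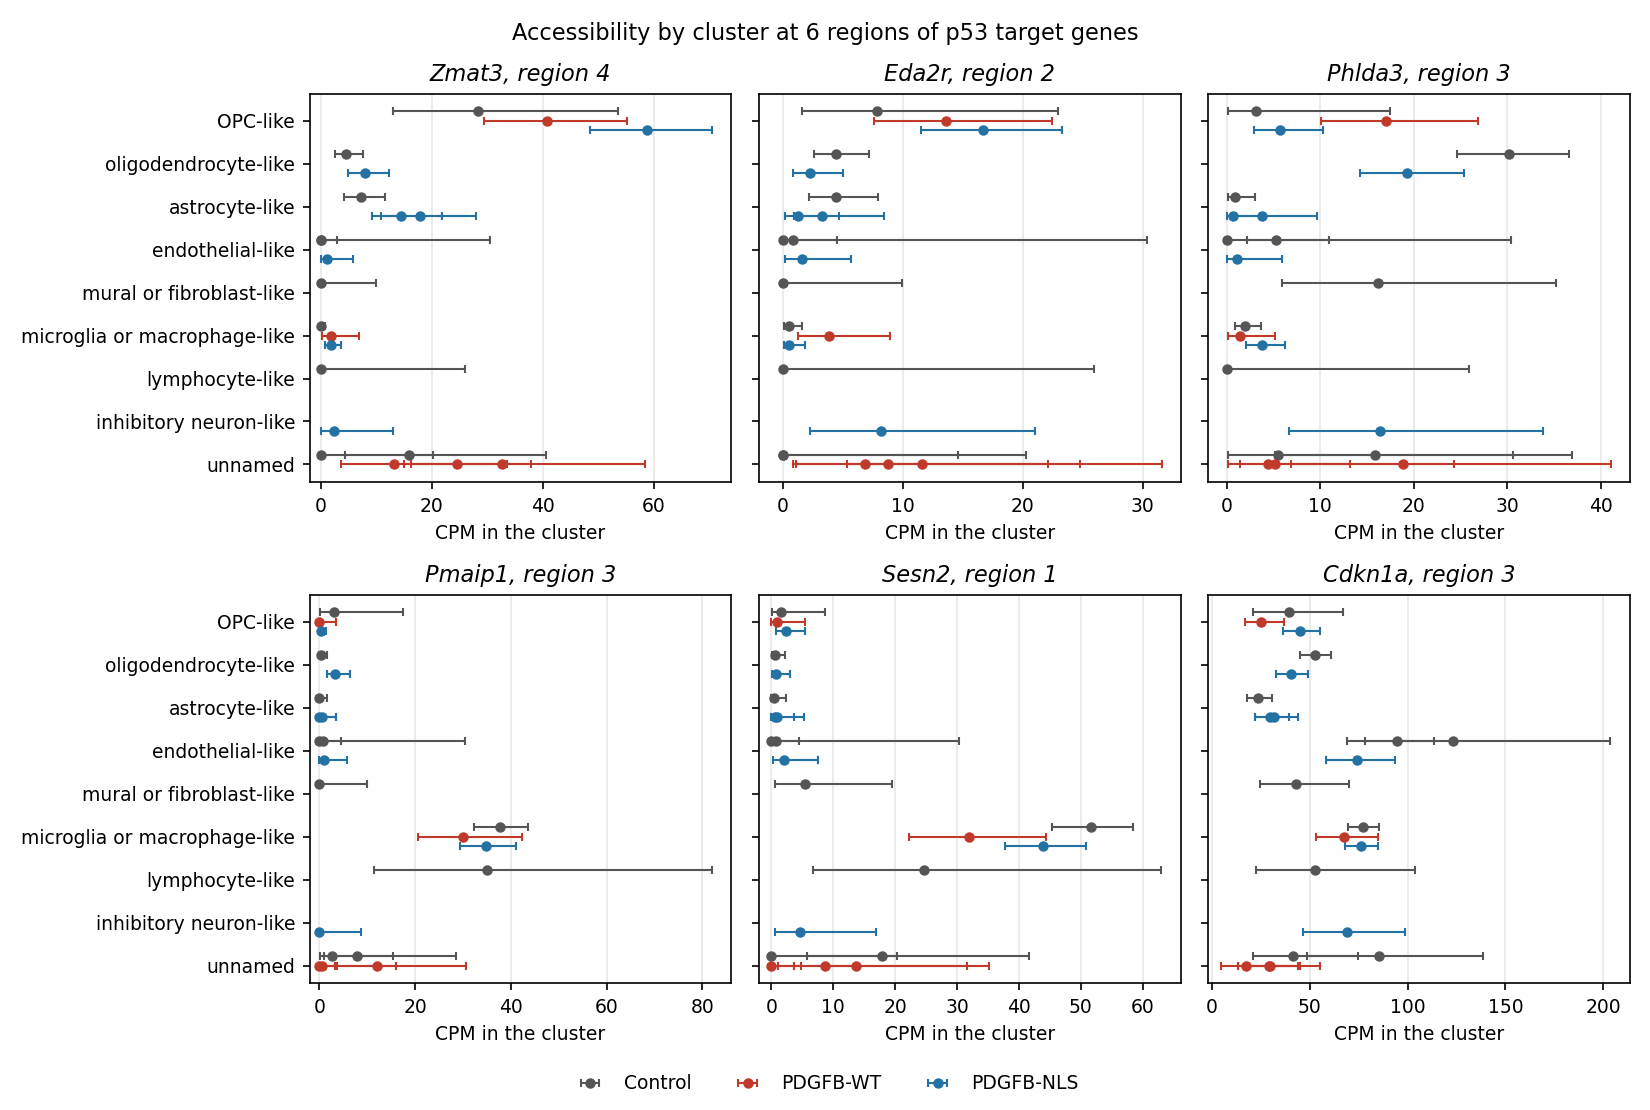
CPM in each cluster at 6 regions of the members, 1 point per cluster and library with its exact 95% Poisson interval; regions are numbered along each locus. The Zmat3 and Eda2r regions are highest in OPC-like clusters, the Phlda3 region in oligodendrocyte-like clusters of Control and PDGFB-NLS, the Pmaip1 and Sesn2 regions in microglia or macrophage-like clusters, and the Cdkn1a region in an endothelial-like cluster of Control.

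Microglia or macrophage-like nuclei formed 1 cluster in each library, of 510, 2280 and 2869 nuclei, with median depths of 23288, 852 and 3431 counts. Ratios within a class are not centred on a median, and no value over all regions of the class is set beside them. Whether a member differs from its class as a whole was not tested. Here Bbc3 had 167.5 CPM in Control, with 87.2 in PDGFB-WT and 142.3 in PDGFB-NLS. The within-class ratio was -0.94 (-1.26 to -0.64) in PDGFB-WT against Control, -0.24 (-0.39 to -0.08) in PDGFB-NLS against Control and 0.71 (0.40 to 1.03) between the overexpression libraries. Its 3 regions gave -0.84, -1.09 and -0.96 in PDGFB-WT against Control. With no median taken off, the whole libraries gave -0.84 for Bbc3 in PDGFB-WT against Control, so the ratio was as large within this class. Pmaip1 was at -0.56 (-0.96 to -0.18) and Cdkn1a at -0.41 (-0.73 to -0.10) in the same comparison, while Bax (-0.04), Ccng1 (0.08), Sesn1 (0.14) and Sesn2 (0.03) had intervals that include 0. In PDGFB-NLS against Control the Cdkn1a ratio was -0.13 (-0.31 to 0.05) and that of Pmaip1 -0.14 (-0.35 to 0.08).

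**Figure D5:**
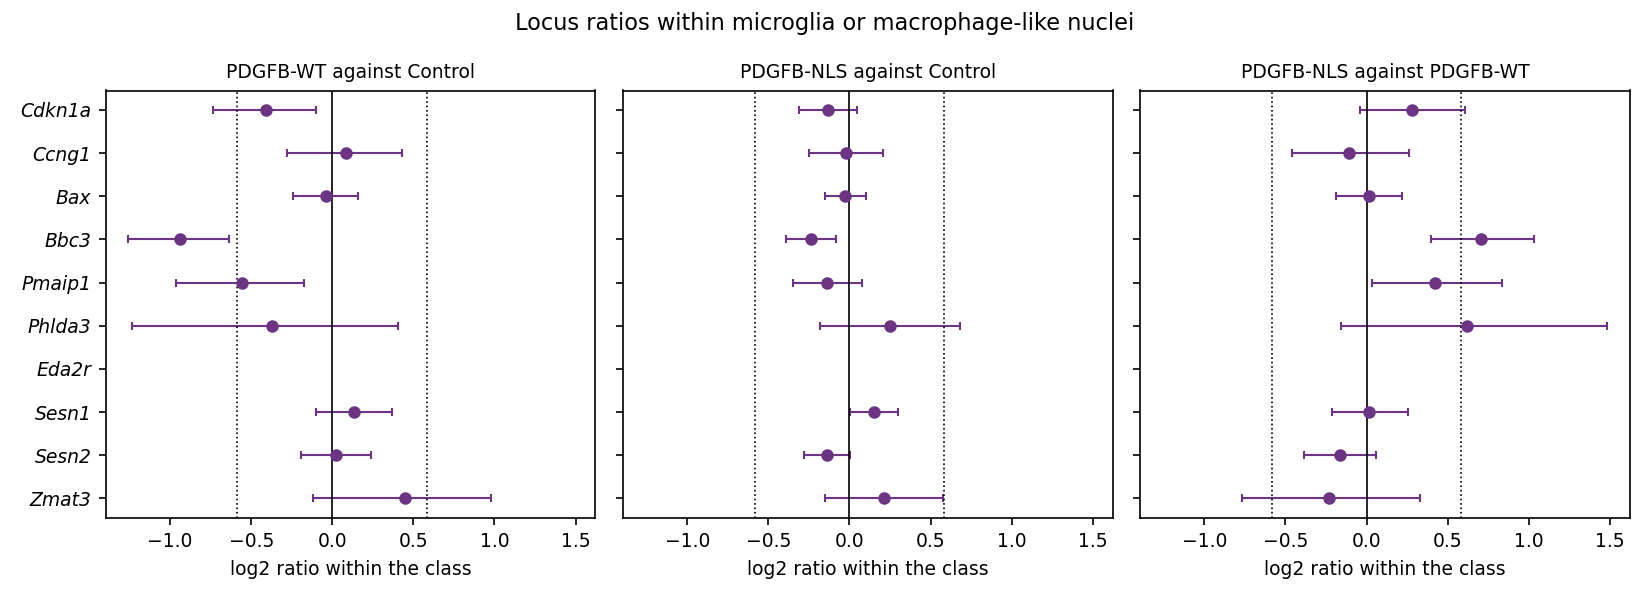
Log2 ratio of each locus over regions called in all 3 libraries, within microglia or macrophage-like nuclei, in the 3 comparisons, with exact 95% intervals (counting error only); dotted lines mark 1.5-fold, and Eda2r had under 30 counts. Bbc3 is the lowest point against Control in PDGFB-WT, at -0.94.

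Within oligodendrocyte-like nuclei Bbc3 was lower in PDGFB-NLS than in Control, at -0.50 (-0.72 to -0.27), and the region over its later starts was at -1.24 (-1.70 to -0.80), with 47.5 CPM in Control and 20.1 in PDGFB-NLS. Within endothelial-like nuclei Bbc3 was at -0.04 (-0.33 to 0.25) and Cdkn1a at -0.18 (-0.50 to 0.13) in that comparison. Within OPC-like nuclei Cdkn1a had 78.4 CPM in Control, 44.2 in PDGFB-WT and 73.8 for PDGFB-NLS. PDGFB-NLS against PDGFB-WT was 0.74 (0.26 to 1.25) there, and PDGFB-WT against Control -0.83 (-1.55 to -0.08). Oligodendrocyte markers were raised in the OPC-like cluster of PDGFB-WT, as given above, so these OPC-like clusters are not alike. Whether these ratios differ between classes was not tested.

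Over the 22 clusters of the 3 libraries, Spearman correlations of locus CPM ran from 0.74 for Cdkn1a with Bbc3 and for Eda2r with Zmat3 to -0.84 for Sesn2 with Zmat3. Phlda3 with Zmat3 had 0.66 and Phlda3 with Sesn2 -0.76. Clusters of 1 library share its peak list and depth, so these values are descriptions. Among genes on other chromosomes, the most alike was Adamts13 for Cdkn1a (0.91), Rsrp1 for Bax (0.86), Dusp3 for Bbc3 (0.89), Nod2 for Pmaip1 (0.95) and Grhl2 for Phlda3 (0.92). For Sesn1 it was Fignl2 (0.85), for Sesn2 Prr14 (0.95), for Eda2r Lrrc4c (0.90), for Ccng1 Immt (0.88) and for Zmat3 Gtf2f2 (0.89). Each was picked as the highest of 12718 to 13532 genes searched, so a high value is no evidence of a link. The median correlation over the genes searched ran from -0.22 for Eda2r to 0.25 for Bbc3.

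The other genes of the pathway come from lists read the same way. Across all loci compared, 14.6% of genes were past 1.5-fold in PDGFB-WT against Control. The share was 9.21% in PDGFB-NLS against Control and 9.62% in PDGFB-NLS against PDGFB-WT. Of 26 further p53 targets, 23 were compared between PDGFB-WT and Control, with a median of -0.10, 0 higher and 1 lower past 1.5-fold. Tigar (0.35) and Ercc5 (0.22) were highest, and Gdf15 (-0.59) and Dcxr (-0.56) lowest. Gdf15 had 6 peaks in Control and 1 in PDGFB-WT, and over regions called in all 3 libraries its ratio was 0.04, while Dcxr had -0.53. All 26 were compared between PDGFB-NLS and Control, with a median of -0.11 and 0 past 1.5-fold. Tigar (0.32) and Tnfrsf10b (0.23) were highest there and Btg2 (-0.38) and Fas (-0.37) lowest. Between PDGFB-NLS and PDGFB-WT the median of 23 was -0.00 with 0 past, from Dcxr (0.43) and Gdf15 (0.41) to Btg2 (-0.35) and Ercc5 (-0.32).

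Among 12 genes for p53 and its regulators, 11 were compared between PDGFB-WT and Control, with a median of 0.07 and 0 past 1.5-fold. Trp53 itself had 180.8 CPM in Control beside 180.6 in PDGFB-WT and 174.6 in PDGFB-NLS, which gave 0.21 (0.08 to 0.34) in PDGFB-WT against Control and 0.09 over common regions. Usp7 was at 0.20, Chek2, a checkpoint kinase, at -0.29 and Ppm1d, a phosphatase of the pathway, at -0.15. In PDGFB-NLS against Control the median of 12 was -0.01, and Trp63, a p53 paralog, was the single gene past 1.5-fold, at 0.74 (0.39 to 1.084), with 8.53 CPM in Control and 14.4 in PDGFB-NLS. Trp73 was at 0.39, but 0.03 over common regions, and Ep300 and Sirt1 were lowest at -0.16 and -0.10. In PDGFB-NLS against PDGFB-WT the median of 11 was -0.04 with 0 past, from Trp73 (0.32) and Chek2 (0.26) to Trp53 (-0.28) and Usp7 (-0.27).

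In the BCL-2 family, Hrk, a BH3-only gene, had 11.8 CPM in Control, with 31.1 in PDGFB-WT and 35.6 in PDGFB-NLS. Its ratio to Control was 1.61 (1.25 to 1.97) in PDGFB-WT and 1.58 (1.32 to 1.84) in PDGFB-NLS, and 1.97 and 1.12 over common regions. Bid, which links death receptors to the mitochondrion, had 73.9, 19.9 and 67.7 CPM, at -1.68 (-2.05 to -1.33) in PDGFB-WT against Control, with 8 peaks in Control and 1 in PDGFB-WT. Over common regions Bid was at -0.62, still past 1.5-fold. Bcl2l1, an inhibitor of apoptosis, was at -0.63 in PDGFB-WT against Control and -0.14 over common regions. Of 11 compared there, 1 was past 1.5-fold higher and 2 lower, against 8% and 6.64% of genes. Their median was -0.13, and Bcl2 was second highest at 0.35. In PDGFB-NLS against Control, 1 of 12 was past 1.5-fold, against 9.21% of genes. The median was -0.02, Bok was at 0.32, Mcl1 at -0.29 and Bcl2l1 at -0.27. In PDGFB-NLS against PDGFB-WT, 1 of 11 was past, Bid at 1.54 (0.56 over common regions), against 9.62% of genes. The median was 0.07, and Bcl2l1 stood at 0.36, Bcl2l2 at -0.21 and Bad at -0.13.

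Of 8 paralogs of the members, 6 were compared between PDGFB-WT and Control, with a median of 0.12. Edar, a receptor related to Eda2r, had 43.3 CPM in Control, 87.0 in PDGFB-WT and 70.8 for PDGFB-NLS, past 1.5-fold higher in both at 1.22 (1.02 to 1.42) and 0.70 (0.54 to 0.85). Over common regions it had 1.14 in PDGFB-WT and 0.46 in PDGFB-NLS, short of 1.5-fold. Ccng2 was at 0.17, Cdkn1c at -0.58 and Cdkn1b at 0.06 in PDGFB-WT against Control. In PDGFB-NLS against Control 8 were compared with a median of -0.06, Zmat4 was at 0.41, Phlda1 at -0.17 and Cdkn1c at -0.16. In PDGFB-NLS against PDGFB-WT 6 were compared with a median of -0.25 and 0 past 1.5-fold, from Cdkn1c (0.42) and Cdkn1b (-0.12) to Edar (-0.53) and Phlda1 (-0.28).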

How the data were processed

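Each library's group is the one in its title. The values are raw counts per peak and nucleus as deposited by the authors, with separate peak lists per library. They were made with cellranger-atac 2.1.0 per the file headers, while Cell Ranger 8 and the mm10 build come from the submitters' processing notes. How peaks and cells were called was not given in the sources used here. Peak positions and cell barcodes were used as deposited.

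Nuclei with at least 200 counts on chromosomes 1 to 19, X and Y were kept. A count v was read as (v + 1) // 2 fragments. Peaks that overlapped between libraries were merged into regions. Gene positions and starts came from RefSeq, GRCm38.p6. The ratios and intervals were tested on simulated data.

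Ratios are log2 of CPM on regions called in all 3 libraries, with exact (Clopper-Pearson) 95% conditional intervals, and levels have exact Poisson intervals. These cover counting error only, and no test was possible with 1 library per group. Region ratios need at least 30 counts in each library and within-class ratios 30 in each class.

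Nuclei were clustered per library by TF-IDF, singular components 2 to 30, 15 neighbours and Leiden at resolution 0.6 (leidenalg 0.10.2, igraph 0.11.9, scipy 1.17.1, Python 3.11.15). A name needed a median marker log2 fold of 0.5, a margin of 0.3 over the next list, 5 markers, and no more markers of another list than of its own among the 10 genes of highest fold. A shallow cluster also needed 1 of its own markers there. Doublets were not called, and a setting without the deepest 5% of nuclei was tried. Libraries shared 23 (Control and PDGFB-WT), 45 (Control and PDGFB-NLS) and 118 (PDGFB-WT and PDGFB-NLS) barcode sequences.

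All 10 members were named, plus the 2 highest and 2 lowest genes of each other list per comparison, and for each member the gene most alike over clusters. The members and lists were chosen with earlier results of these data known. The region minimum, the naming thresholds for clusters, and the regions shown by cell type were chosen after values were seen. Exons and sequence of peaks were not used here.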

Additional observations from a re-analysis of the deposited data

How the results depend on the processing

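No paired analysis was possible because each group is 1 library. Under 16 alternatives, 893 of 983 values of single members moved by less than their counting error and 90 moved by more. With the all-gene median left in, the median of the loci was -0.18 for PDGFB-WT against Control, and that of the other peaks was -0.45. Between PDGFB-NLS and PDGFB-WT the other peaks had 0.32. Per kb of peak, the loci had medians of -0.54 for PDGFB-WT against Control and 0.43 between PDGFB-NLS and PDGFB-WT, with 4 and 5 members past 1.5-fold and 1 in PDGFB-NLS against Control; the other peaks had -0.64 and 0.31. This scale divides by the length of the peaks called in each library. With counts capped to 1, the members past 1.5-fold in PDGFB-WT against Control numbered 0. With no minimum, and with no flank, 1 member was past 1.5-fold in PDGFB-NLS against PDGFB-WT. These counts of members have no share of all genes under the same setting beside them. They are not read as a result about the members. For the other peaks, a higher minimum of counts (which leaves Zmat3 without a value), a flank of 2 kb and no flank gave -0.53, -0.53 and -0.56 in PDGFB-WT against Control, and 0.34, 0.29 and 0.29 in PDGFB-NLS against PDGFB-WT; each leaves fewer peaks or genes. With no region median taken off, a setting chosen after seeing the data, 0 regions were past 1.5-fold lower in PDGFB-NLS against Control, where 1 was before. Depth limits Eda2r, with 98 counts in PDGFB-WT, and the 57 OPC-like nuclei of Control.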
